A study of Drosophila melanogaster with 6 samples.

Results

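The vacuolar ATPase subunit genes were taken as every gene whose symbol begins with Vha in the authors' adult comparison table, joined to the adult counts by FlyBase identifier, which gave 32 of the 17494 genes counted. They comprised 13 genes of the V1 sector, 18 of the V0 sector and 1 accessory gene, VhaAC45. By what is generally known of them, 14 are the broadly expressed copy of their subunit and 18 are further copies, many of them limited to a tissue. The samples were indirect flight muscles, labelled dorsolongitudinal, hand-dissected from 2-day-old females. There were 3 samples of Mef2-GAL4 crossed to M1BP RNAi and 3 of Mef2-GAL4 crossed to w1888, the WT, and each pooled 30 flies. Mef2-GAL4, which both groups carry, drives the hairpin against the transcription factor M1BP in muscle. The study's text adds that it can also act in some neurons and that Mef2 is expressed in fat body. It reports that knockdown with a neuronal or a fat body driver left flight muscle sarcomeres and mitochondria without visible defects, whereas Him-GAL4 gave mitochondrial defects as well. Samples of 1 group carry separate numbers, but nothing in the labels says how the flies were reared, so p-values measure only the spread between these samples.

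The vacuolar ATPase is a rotary proton pump that acidifies lysosomes, endosomes, the Golgi and synaptic vesicles, and in some insect epithelia it energises transport across the plasma membrane. Its cytosolic V1 sector hydrolyses ATP on subunits A and B, and its membrane sector V0 carries protons through the ring of c subunits against subunit a. On lysosomes the pump is also a platform for the Rag GTPases and Ragulator that recruit TORC1, and in flies the transcription factor Mitf, the orthologue of mammalian TFEB, is known to act on genes of the pump.

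The knockdown was visible in the counts, with M1BP at 49.5, 50.1 and 52.0 normalized counts upon M1BP RNAi against 149, 123 and 119 in WT (log2 fold change -1.36 ± 0.16 SE, adjusted p = 3.36e-04, edgeR quasi-likelihood test with Benjamini-Hochberg adjustment, as for every adjusted p below). Libraries summed to between 37908823 and 64768186 counts upon M1BP RNAi and between 45132859 and 64871987 in WT. Counts of genes of mtDNA made up 54.0 to 59.4% of these upon M1BP RNAi and 71.5 to 76.3% in WT, so a scale over the whole library and one over the bulk of the genes differ. Normalized counts here are scaled by TMM, under which the median log2 fold change of all 9276 genes tested was 0.02. Scaling by total library size moved that median to 0.77, and changes are therefore read below relative to the other genes.

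Markers of other cell types differed between the groups in these bulk samples, in which fewer cells of a type and less RNA per cell cannot be told apart. All 10 flight muscle markers were detected, with a summed level of 1734850 to 2387510 normalized counts upon M1BP RNAi against 1064670 to 1120830 in WT. Of all genes tested, 27.0% were lower and 29.1% higher at 0.05. At that threshold, 7 of these markers were higher (70.0%) and salm, a regulator of flight muscle fate, was lower (log2 fold change -1.48, adjusted p = 9.34e-04). The 8 fat body markers summed to 13433 to 29784 upon M1BP RNAi against 51372 to 86363 in WT, the 6 neuron markers to 1717 to 2371 against 3509 to 4809, and the 3 glia markers to 2491 to 4126 against 9298 to 11472. Of 6 fat body markers tested 4 were lower (66.7%) and Lsp2 was higher (log2 fold change 3.42, adjusted p = 0.0363). Lsp2 had 313 normalized counts in M1BP RNAi 1 against 35.1 and 31.8 in M1BP RNAi 2 and 3. All 6 neuron and all 3 glia markers were lower upon M1BP RNAi with an adjusted p no higher than 0.05. The 6 blood cell markers summed to 3214 to 5649 upon M1BP RNAi against 4919 to 6295 in WT and the 4 trachea markers to 277 to 507 against 652 to 673. At 0.05, 4 of the 6 blood cell markers (66.7%) and 2 of the 4 trachea markers (50.0%) were lower, and neither list had a higher marker. The 6 Malpighian tubule and gut markers summed to 12061 to 29831 upon M1BP RNAi against 4781 to 15644 in WT. The 8 ovary and testis markers summed to 4.89 to 177 upon M1BP RNAi against 6.62 to 9.29 in WT. The 177 was that of M1BP RNAi 1, where osk had 123 counts, against 0 and 3 in M1BP RNAi 2 and 3. The testis genes aly and dj were at 0 in every sample. No other marker of these lists was at 0 in all samples. The part of these cells in the values below was not tested.

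Transcripts of the pump were lower upon M1BP RNAi relative to the other nuclear genes. Summed over the family, the CPM (counts scaled to the total of nuclear genes) was 3225, 3466 and 3599 upon M1BP RNAi and 5157, 5599 and 7539 in WT, so the groups did not overlap. Scaled to the whole library instead, the summed CPM was 1483, 1406 and 1509 upon M1BP RNAi against 1223, 1391 and 2152 in WT, where the groups overlapped. Of the 32 genes, 21 had enough counts to be tested, 19 of them with a log2 fold change below 0, and the median was -0.60. Vha44, Vha68-1 and Vha100-2 fell by 1.5-fold or more with an adjusted p no higher than 0.001, which is 3 of 21 (14.3%) where 6.58% of all genes tested fell. None rose at that threshold, which 11.0% of all genes passed, and Vha100-4 missed it narrowly (adjusted p = 0.00114). At an adjusted p of at most 0.05, 10 of 21 fell (47.6%, against 27.0% of all genes) and 1 rose (4.76%, against 29.1%). In 11 of 21 the M1BP RNAi samples were all lower than any WT sample, a larger share than the 31.1% among all genes. Under total library size 7 of the 21 log2 fold changes were below 0, the median was 0.13, and Vha44 and Vha100-2 were the members lower at 0.05. Relative to the median of all genes, 19 of 21 lay below it there. A change of scale moves all genes nearly alike, so this count had to recur and is not a second result.

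**Figure D1:**
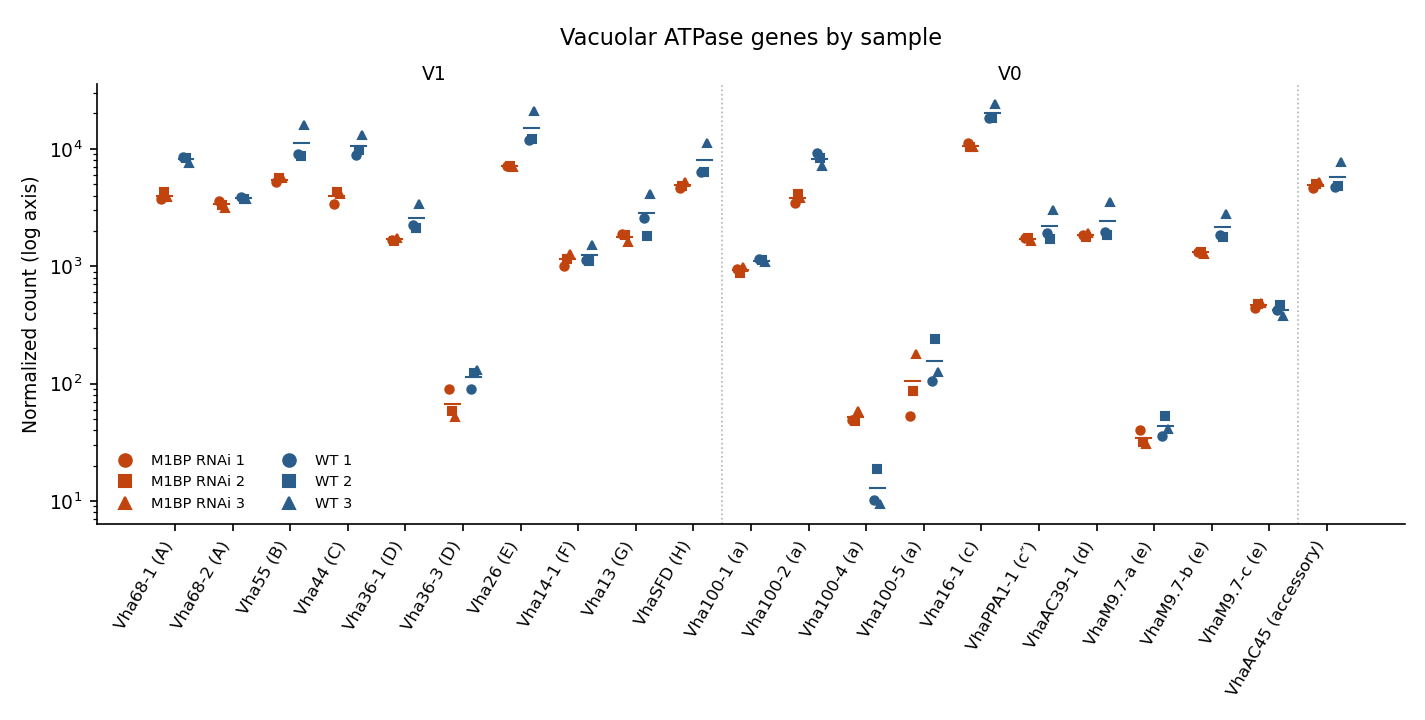
Normalized counts of the 21 vacuolar ATPase genes tested (log axis), 3 M1BP RNAi samples in orange left of 3 WT samples in blue, with the group mean as a line and the subunit in brackets. Vha44, Vha68-1 and Vha100-2 separate the groups by more than either group's spread, and in many broad copies the WT mean is set by WT 3.

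Among the V1 genes, the catalytic A subunit had a pair of expressed copies, of which 1 fell. Vha68-1 (chr2L:13000770-13004107, minus strand, dm6) had 3734, 4258 and 3852 normalized counts upon M1BP RNAi, against 8524, 8385 and 7610.2 in WT. Every knockdown sample lay below every WT sample and the WT samples agreed closely, and the log2 fold change was -1.05 ± 0.12 SE (adjusted p = 2.97e-04). Vha68-2 (chr2L:12974322-12978607, plus strand), the broadly expressed A copy, had 3593, 3307 and 3161 normalized counts upon M1BP RNAi against 3901, 3707 and 3759.7 in WT. Its groups did not overlap either, but the change of -0.18 ± 0.11 SE did not pass (adjusted p = 0.213). Vha55, the only B subunit gene of the set and with A the site of ATP binding, had 5183, 5586 and 5605 normalized counts upon M1BP RNAi against 9012, 8607 and 16049.6 in WT. The knockdown samples were all lower, at -1.04 ± 0.24 SE (adjusted p = 0.00803), with WT 3 far above the other WT samples. Without WT 3 the change of Vha55 was -0.69 (adjusted p = 0.00371).

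Vha44 (chr2R:16324813-16336637, minus strand), which encodes the C subunit that holds V1 to V0 and leaves first when the pump comes apart, had the lowest log2 fold change of the family. It had 3395, 4288 and 4139.8 normalized counts upon M1BP RNAi, against 8878, 9739 and 13153 in WT. All 3 knockdown samples lay below all WT samples, by 2.69-fold in the means (log2 fold change -1.43 ± 0.18 SE, adjusted p = 5.08e-04). Its exons share 148 bases on the opposite strand with Hmgs, the HMG-CoA synthase gene, which rose (log2 fold change 1.86 ± 0.21 SE, adjusted p = 3.10e-04). Hmgs had 3078, 2371 and 2340.4 normalized counts upon M1BP RNAi against 657, 563 and 929 in WT, and whether counting used strand is not given in the sources used here.

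The stalk subunits E, G and D and the regulatory subunits F and H moved less evenly. Vha26, the E subunit of the outer stalks, had 7132, 7097 and 7013 normalized counts upon M1BP RNAi against 11932, 12026 and 21128 in WT. It was lower in every knockdown sample, at -1.09 ± 0.23 SE (adjusted p = 0.00530), and at -0.75 without WT 3 (adjusted p = 0.00242). Vha13, the G subunit that pairs with E, had 1885, 1846 and 1596 normalized counts upon M1BP RNAi against 2578, 1807 and 4150.2 in WT. The groups overlapped and the change of -0.68 ± 0.28 SE did not pass (adjusted p = 0.0693), being -0.30 without WT 3 (adjusted p = 0.207). Vha36-1, the D subunit of the central rotor, had 1675, 1647 and 1748 normalized counts upon M1BP RNAi against 2237, 2099.9 and 3358 in WT. It fell by 0.60 ± 0.19 SE on the log2 scale (adjusted p = 0.0267) with no overlap of the groups, and by 0.35 without WT 3 (adjusted p = 0.0374). Its minor copy Vha36-3, at 52.0 to 90.7 upon M1BP RNAi against 89.0 to 130.5 in WT, fell by 0.79 ± 0.26 SE (adjusted p = 0.0306) with 1 knockdown sample inside the WT range. VhaSFD, the H subunit that governs V1 activity, had 4642, 4867 and 5219.8 normalized counts upon M1BP RNAi against 6352, 6373 and 11280.0 in WT. All knockdown samples were lower (-0.70 ± 0.23 SE, adjusted p = 0.0333), and the change was -0.37 without WT 3 (adjusted p = 0.0406). Vha36-1 and VhaSFD missed 0.05 when any 1 of the M1BP RNAi samples was left out (adjusted p 0.0615 to 0.0773 for Vha36-1 and 0.0677 to 0.0860 for VhaSFD). Vha36-3 missed it in 4 of the 6 fits without 1 sample, that without WT 3 included. Vha14-1, the F subunit of the rotor, had 1008, 1152 and 1268 normalized counts upon M1BP RNAi against 1125, 1111 and 1506 in WT. Its groups overlapped (-0.13 ± 0.16 SE, adjusted p = 0.526).

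Among the V0 genes, the c subunit of the proton-carrying ring and the broad copies of the a and e subunits were lower at 0.05. Vha16-1 (chr2R:6625242-6633090, minus strand), the c subunit, which is present in several copies per pump, had 11125, 10398 and 10452 normalized counts upon M1BP RNAi against 18446, 18470.2 and 24091 in WT. The groups were far apart, and the change of -0.93 ± 0.15 SE lay just outside the stricter threshold (adjusted p = 0.00128). VhaPPA1-1, the other proteolipid of the ring (c″), had 1736, 1744 and 1652 normalized counts upon M1BP RNAi against 1899.9, 1694 and 2984 in WT. WT 2 lay within the knockdown range and the change of -0.36 ± 0.21 SE did not pass (adjusted p = 0.181), being -0.07 without WT 3. VhaAC39-1, the d subunit between rotor and ring, had 1844, 1779 and 1903 normalized counts upon M1BP RNAi against 1939, 1838 and 3544 in WT. WT 2 lay within the knockdown range and WT 3 far above it (-0.41 ± 0.25 SE, adjusted p = 0.197, and -0.03 without WT 3). VhaM9.7-b, the broad copy of the small e subunit, had 1332, 1322 and 1273 normalized counts upon M1BP RNAi against 1845, 1785 and 2801 in WT. It was lower in every knockdown sample, at -0.71 ± 0.19 SE (adjusted p = 0.0129), and at -0.47 without WT 3 (adjusted p = 0.0119). VhaAC45, an accessory membrane protein that travels with V0 and that the study's lists place among Complex V genes, had 4603, 5002 and 5248 normalized counts upon M1BP RNAi against 4707, 4855 and 7669.7 in WT. Its change of -0.21 ± 0.20 SE did not pass (adjusted p = 0.394), and without WT 3 it was 0.06.

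The a subunit, whose copies are known to direct the pump to particular membranes and tissues, gave the widest range within the family. Vha100-2 (chr3R:18390323-18399169, minus strand), the broad copy, had 3448, 4128 and 3812 normalized counts upon M1BP RNAi against 9263, 8280.1 and 7161 in WT. Every knockdown sample was lower, at -1.12 ± 0.14 SE (adjusted p = 4.94e-04), and WT 3 was here the lowest WT sample. Vha100-1, the copy of synaptic vesicles in neurons, had 938, 881 and 987 normalized counts upon M1BP RNAi against 1148, 1126 and 1079 in WT. The groups did not overlap, but the change of -0.26 ± 0.11 SE did not pass (adjusted p = 0.0728). The 6 neuron markers, all lower as given above, moved the same way, and their part in Vha100-1 was not tested. Vha100-4 (chr3R:18386841-18389805, minus strand), known from the midgut, had 48.4, 48.1 and 58.7 normalized counts upon M1BP RNAi against 10.3, 18.6 and 9.46 in WT. All knockdown samples were higher, by 4.05-fold in the means (log2 fold change 2.02 ± 0.31 SE, adjusted p = 0.00114), on raw counts of 47, 48 and 96 upon M1BP RNAi and 6, 14 and 10 in WT. Its WT counts alone were too low for the count filter, so it entered the test only through the group where it is high. It lies 517 bases beyond the 3′ end of Vha100-2 on the same strand, and of the 6 Malpighian tubule and gut markers whose sums are given above, Amy-p was higher (log2 fold change 2.68, adjusted p = 0.00295), Uro was lower (-2.05, adjusted p = 0.0249) and the other 4 did not pass 0.05. The part of gut tissue in Vha100-4 was not tested. Vha100-5 ranged from 52.6 to 177 upon M1BP RNAi against 106 to 238 in WT and did not pass (-0.55 ± 0.46 SE, adjusted p = 0.344).

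**Figure D2:**
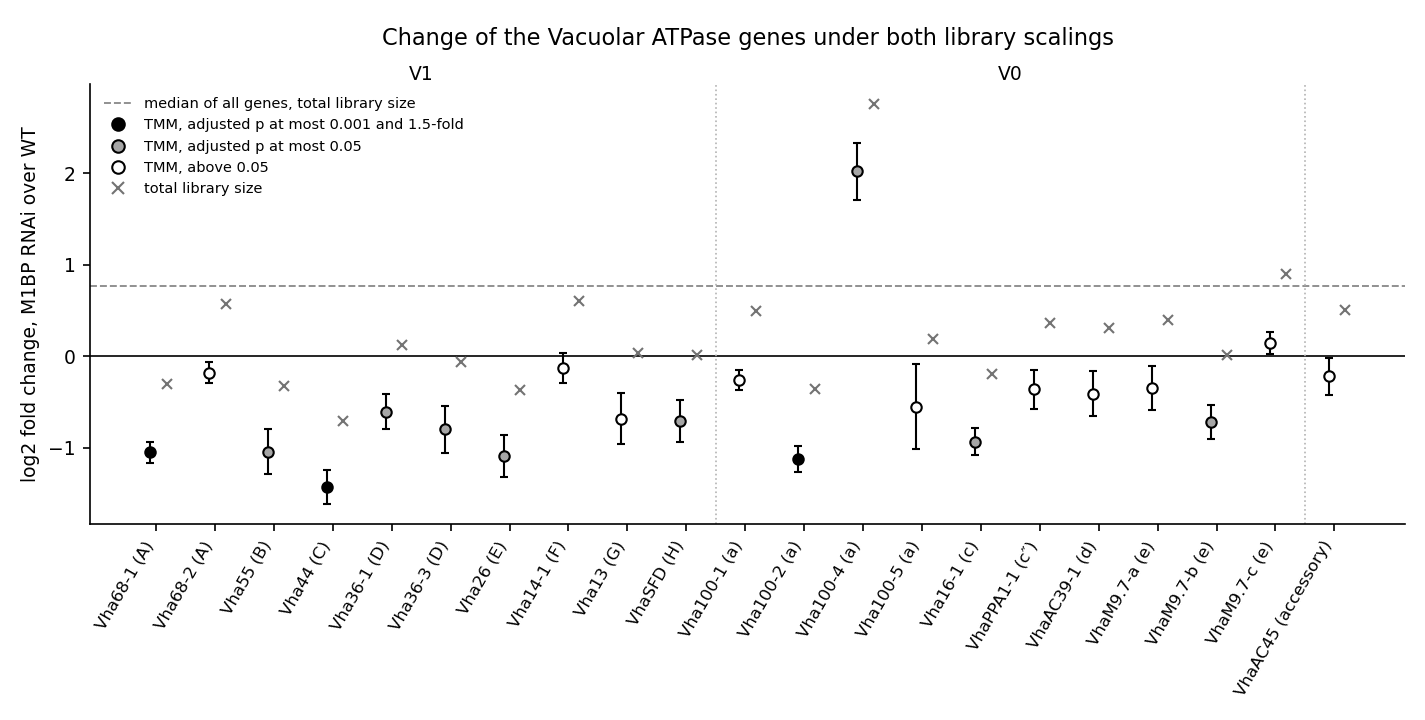
Log2 fold change of M1BP RNAi over WT for the 21 genes, as circles with SE under TMM scaling (black, adjusted p at most 0.001 and 1.5-fold; grey, at most 0.05; white, above) and as crosses under total library size, with the median of all genes under the latter as a dashed line. Under TMM 19 circles lie below 0, and under total library size 19 crosses lie below the dashed line and 14 lie above 0. A change of scale moves all genes nearly alike, so the crosses are not a second result.

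The V1 and V0 sectors differed in their medians over all copies but not over the broad copies alone. The 10 V1 genes tested had a median log2 fold change of -0.75, 7 of them lower at 0.05 (70.0%), and the 10 V0 genes a median of -0.38, with 3 lower (30.0%) and 1 higher. Of all genes tested, 27.0% were lower and 29.1% higher at 0.05, so the V0 count of lower genes was near the background. Within the broad copies the 8 V1 genes had a median of -0.69 and the 5 V0 genes one of -0.71. All 14 broad copies were below 0 (median -0.69, 8 or 57.1% lower at 0.05), whereas the 7 further copies tested had a median of -0.34, with 2 lower (28.6%) and 1 higher, again near the background for lower genes. At the stricter threshold 2 of the 14 broad copies and 1 of the 7 further copies were lower, 14.3% in each class, against 6.58% of all genes. The lowest of the further copies was Vha68-1, which in flight muscle was more abundant than the broad copy Vha68-2. Since these groups were formed with results of these data known, the medians describe the genes and were not tested.

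Shares of the copies within a subunit do not depend on how libraries are scaled, and for the A, a and e subunits those of the leading copies separated the groups. Per exon length and over the copies tested, Vha68-1 supplied 51.7, 57.0 and 55.7% of A subunit transcripts upon M1BP RNAi, against 69.3, 70.0 and 67.6% in WT, and Vha68-2 supplied the rest. The difference was -14.1 percentage points with no overlap of the groups. Vha100-2 supplied 76.9, 80.3 and 75.6% of a subunit transcripts upon M1BP RNAi and 88.1, 85.7 and 85.6% in WT, a difference of -8.85 points. Vha100-1 supplied 20.5, 16.8 and 19.2% of them upon M1BP RNAi, against 10.7, 11.4 and 12.6% in WT, although its normalized count was lower. Vha100-4 remained minor, at 1.28, 1.10 and 1.37% upon M1BP RNAi against 0.115, 0.227 and 0.133% in WT. For the e subunit, VhaM9.7-b made up 65.6, 64.4 and 62.8% upon M1BP RNAi against 73.4, 70.0 and 82.2% in WT, and VhaM9.7-c made up 31.0, 32.9 and 34.6% against 24.1, 26.4 and 15.8%. The normalized counts of VhaM9.7-c itself overlapped between the groups (439 to 489 upon M1BP RNAi against 374 to 469.9 in WT, adjusted p = 0.330), as did those of VhaM9.7-a (30.6 to 40.2 against 35.9 to 53.1, adjusted p = 0.259). The shares of the D subunit copies overlapped. With 3 samples a group the exact two-sided permutation test cannot go below p = 0.1, the value all 7 of these separated shares gave, or 0.157 after adjustment over the 11 shares compared. Shares within a subunit add up to the whole, so these 7 are not independent results. Reads were counted where they mapped uniquely, and how much sequence the copies share was not analysed here.

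**Figure D3:**
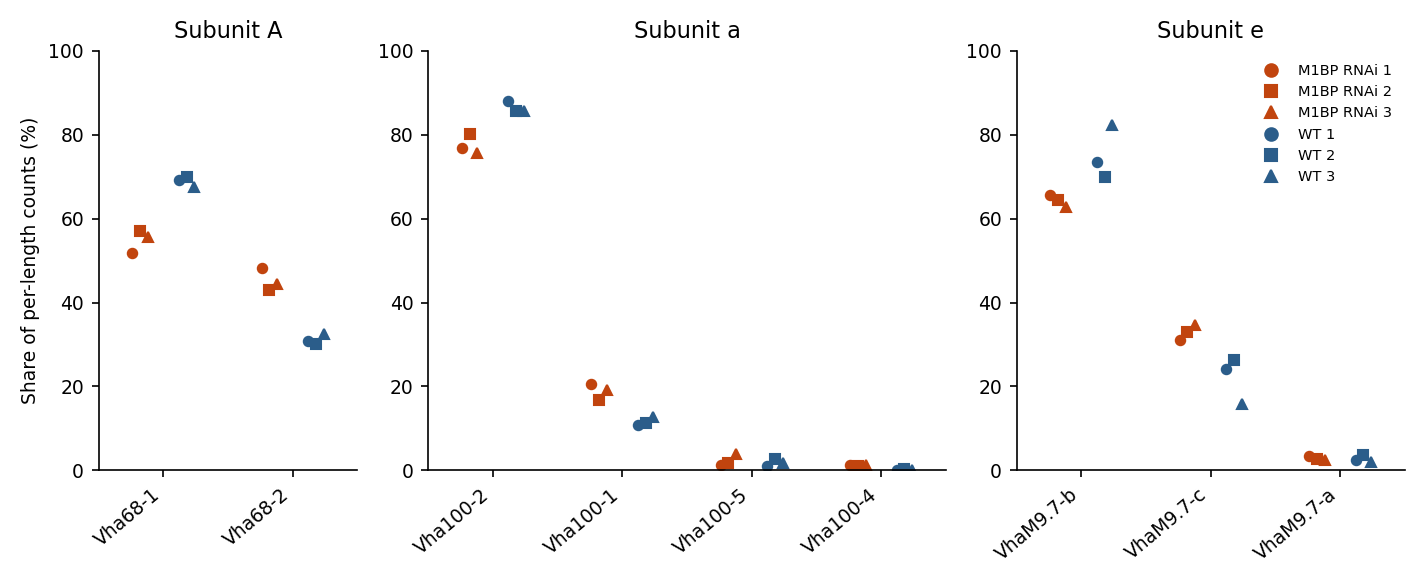
Share of each copy among the per-length counts of its subunit (%), for subunits A, a and e, with the M1BP RNAi samples in orange left of the WT samples in blue. Vha68-1, Vha100-2 and VhaM9.7-b take a smaller share in each M1BP RNAi sample than in any WT sample.

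The remaining 11 genes were silent or nearly so in both groups. Vha100-3, Vha16-2, Vha16-3, Vha16-4, VhaPPA1-2, Vha36-2 and VhaM9.7-d had 0 counts in every sample, where 3 counts in a library, the limit that a count of 0 allows, equal 1.83 to 3.09 normalized counts upon M1BP RNAi and 2.84 to 5.13 in WT. These limits cover counting error only. Vha16-5 had 3, 2 and 3 counts upon M1BP RNAi against 1, 1 and 1 in WT, and VhaAC39-2 had 2, 3 and 1 against 0, 0 and 0. Vha68-3 had 0, 1 and 5 counts upon M1BP RNAi against 0, 0 and 1 in WT, and Vha14-2 had a single count in all, in WT 3. Several of these copies are known mainly from testis, and the flies were female. Some lie directly beside an expressed copy: Vha68-3 starts 178 bases after Vha68-2, and VhaPPA1-2 lies 2052 bases from VhaPPA1-1.

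Per kilobase of exon, Vha16-1 was the most abundant member in both groups, at 3464 ± 132 normalized counts per kb upon M1BP RNAi and 6609 ± 1057 in WT (SD, n = 3 each). In WT it was followed by Vha26 (5136 ± 1805), Vha55 (4028 ± 1502), Vha68-1 (3053 ± 184) and Vha13 (3017 ± 1267), and the WT SDs of Vha26, Vha55 and Vha13 include a higher value in WT 3. Within a sample, Vha16-1 was above Vha26 and Vha26 above Vha55 in all 6 samples, whereas Vha55, Vha68-1 and Vha13 changed places among the WT samples. Vha44 took place 15 of 21 upon M1BP RNAi, at 979.6 ± 119 normalized counts per kb, and place 8 in WT, at 2632 ± 562. Vha68-1 took place 9 upon M1BP RNAi and place 4 in WT, whereas VhaAC45 took place 2 upon M1BP RNAi and place 6 in WT. VhaM9.7-c, Vha100-1, Vha36-3, VhaM9.7-a, Vha100-5 and Vha100-4 held places 16 to 21 in both groups, from 550.2 down to 19.0 normalized counts per kb upon M1BP RNAi and from 498 down to 4.68 in WT.

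WT 3 stood apart in these genes. It was the highest WT sample for 12 of the 14 broad copies, against 36.8% of all genes, and for 1 of the 7 further copies. Its ratio to the mean of WT 1 and WT 2 had a median of 1.58 over the broad copies and reached 1.89 in Vha13, 1.88 in VhaAC39-1 and 1.82 in Vha55, while the median over all genes was 1.00. Vha100-2 (0.816) and Vha68-2 (0.988) were the broad copies in which it was not raised. Without WT 3 the median of the 21 genes was -0.37, 17 of 21 were below 0, and the genes past the stricter threshold were Vha44 (-1.23, adjusted p = 7.32e-04), Vha68-1 (-1.09, adjusted p = 6.31e-04) and Vha100-2 (-1.20, adjusted p = 6.28e-04). At 0.05, 9 of the 10 remained lower without WT 3, all but Vha36-3. The strict calls were thus kept without WT 3, whereas leaving out any of the other samples cost them: 1 remained without M1BP RNAi 1 (Vha68-1), and 0 without M1BP RNAi 2, M1BP RNAi 3, WT 1 or WT 2. Between 7 and 10 members were lower at 0.05 in each of these fits.

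**Figure D4:**
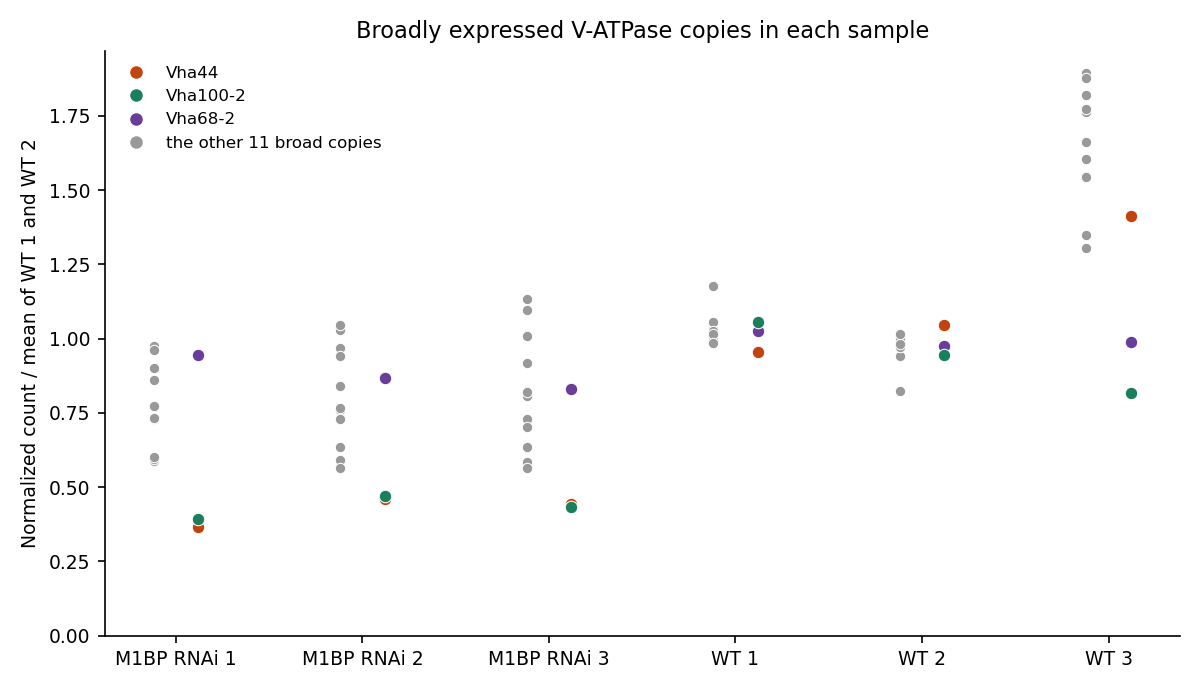
Normalized count of each of the 14 broad copies in each sample, relative to the mean of WT 1 and WT 2 (1 point per gene, with 3 genes coloured). In WT 3 the copies spread up to 1.89 while Vha100-2 is at 0.816, and Vha44 and Vha100-2 are the lowest points in all 3 M1BP RNAi samples.

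Several members start close to a gene that runs the opposite way. Of the 21 genes tested, 10 had a tested gene on the other strand whose annotated start lay within 1000 bases of their own, and the pairs did not move as one. Tor, the kinase of TORC1, starts 373 bases from Vha68-1 and fell as well (adjusted p = 0.00402). Next to Vha26, noi, a splicing factor gene 304 bases away, rose (log2 fold change 1.23 ± 0.16 SE, adjusted p = 6.08e-04), while Vha26 was lower. Snx3, 202 bases from Vha55, changed by -0.29 (adjusted p = 0.0552) and CG8187, 72 bases from Vha36-1, by -0.12 (adjusted p = 0.458). VhaAC45 and its neighbour CG8027, 437 bases away, changed by -0.21 and -0.23, neither past the threshold. Beside Vha100-1, dgt6 fell (-1.63, adjusted p = 0.0304), and beside VhaM9.7-a, CG11586 rose (0.99, adjusted p = 0.00113). COX8 beside VhaM9.7-b (adjusted p = 0.804) and Nup58 beside Vha13 (adjusted p = 0.980) did not pass. Hmgs, given above with Vha44, is also among the 10.

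Genes that regulate or assemble the pump included changes larger than those of the pump itself. Mitf had 768, 838 and 798 normalized counts upon M1BP RNAi against 4276, 4259.5 and 3591 in WT, so it was 5.04-fold lower in the knockdown mean (log2 fold change -2.33 ± 0.13 SE, adjusted p = 1.22e-05). Lamtor5, a Ragulator subunit, had 58.7, 63.1 and 64.2 against 589, 561 and 548 (-3.18 ± 0.11 SE, adjusted p = 5.65e-06). Rheb, the GTPase that activates TORC1, had 579, 696 and 693 against 1777, 1884 and 1525 (-1.40 ± 0.14 SE, adjusted p = 1.46e-04). In all 3 genes the knockdown samples lay far below WT and close to each other. Of the 11 genes listed for Mitf, the Rag GTPases, Ragulator and TORC1, these 3 passed the stricter threshold (27.3%, against 6.58% of all genes; median -0.22, against 0.02). Mitf and Lamtor5 passed it in all 6 fits that left out 1 sample, and Rheb in 3 of 6 (adjusted p up to 0.00116). At 0.05, 4 of the 11 were lower (36.4%, against 27.0% of all genes), with Tor as the fourth, and raptor was higher (0.34 ± 0.11 SE, adjusted p = 0.0312), 9.09% against 29.1%. The raptor call at 0.05 was lost in 5 of 6 fits that left out 1 sample (adjusted p 0.0222 to 0.103). The other 6 genes did not pass. Lamtor2 cannot be told from CG30120, which shares all of its exons, and raptor shares 1669 bases with Mipp2 on the same strand.

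Of the 3 genes of the RAVE complex, which puts V1 and V0 together, rogdi had 436, 399 and 417 normalized counts upon M1BP RNAi against 1135, 1175 and 921 in WT. Its groups were well separated (log2 fold change -1.37 ± 0.13 SE, adjusted p = 1.25e-04), and the stricter threshold held in 3 of 6 fits that left out a sample (adjusted p up to 0.00118). Rbcn-3B was at -0.36 ± 0.13 SE on the log2 scale (adjusted p = 0.0470), past 0.05 in 1 of 6 fits that left out a sample (adjusted p 0.0400 to 0.165), and Rbcn-3A did not pass (-0.24 ± 0.12 SE, adjusted p = 0.128). Mitf, Lamtor5, Rheb and rogdi remained below 0 under total library size, at -1.58, -2.43, -0.65 and -0.61, where Mitf and Lamtor5 stayed past the stricter threshold, whereas Tor (0.11) and Rbcn-3B (0.40) turned.

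Lysosomal genes outside the pump did not follow it as a group. Of 18 tested from a list of 20 hydrolases and membrane proteins, 2 fell (11.1%, against 27.0% of all genes) and 4 rose (22.2%, against 29.1%) at 0.05, and the median was 0.09, so neither share stood above the background. Lamp1, a lysosomal membrane glycoprotein, had 2066, 2029.9 and 2298 normalized counts upon M1BP RNAi against 5962, 6723 and 5714 in WT. It was lower in every knockdown sample (-1.52 ± 0.13 SE, adjusted p = 6.64e-05), and Npc1a, the sterol transporter, was at -0.47 on the log2 scale (adjusted p = 0.0195), which missed 0.05 in 4 of 6 fits that left out a sample (adjusted p up to 0.0797). The lysosomal efflux transporter gene spin had 7372, 9110.1 and 9716 upon M1BP RNAi against 4645, 4153 and 3707 in WT. It rose (1.07 ± 0.15 SE, adjusted p = 8.60e-04, and adjusted p = 0.00283 without WT 3). The stricter threshold held for spin in 1 of 6 fits that left out a sample (adjusted p up to 0.00471). The protease gene cathD rose at 0.05, by 0.96 ± 0.16 SE (adjusted p = 0.00173), as did CG7997, an alpha-galactosidase gene (1.19 ± 0.24 SE, adjusted p = 0.00439), and Cln7 (0.44 ± 0.13 SE, adjusted p = 0.0252). The Cln7 call was lost in 4 of 6 fits that left out a sample, among them that without WT 3 (adjusted p = 0.0573). The other 12, among them the cathepsin L gene Cp1, the saposin gene Sap-r and Npc2a, did not pass. In cathD, 148 exon bases lie opposite puml.

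**Figure D5:**
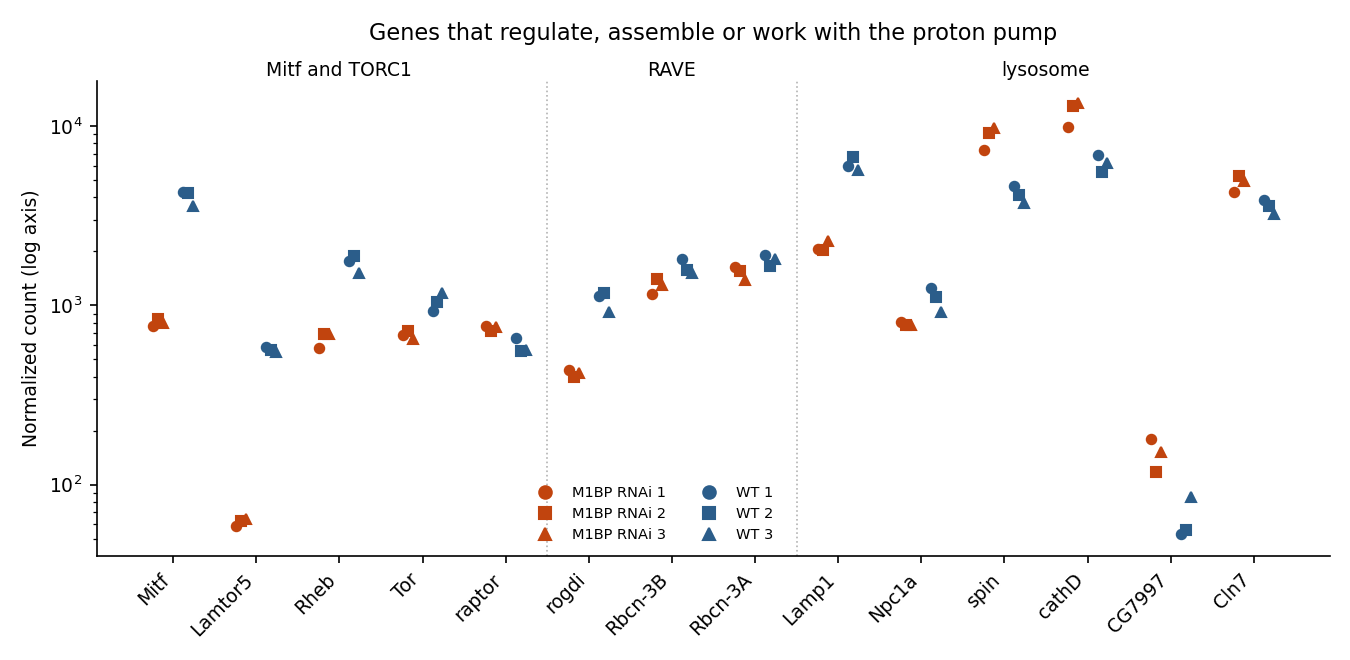
Normalized counts (log axis) of 14 genes of the pump's regulators, its RAVE assembly factors and the lysosome, M1BP RNAi samples in orange left of WT samples in blue. Mitf, Lamtor5, Rheb, rogdi and Lamp1 lie lower and spin and cathD higher in every M1BP RNAi sample.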

How the data were processed

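The authors deposited raw counts per gene, without normalization, over exons on dm6 from uniquely mapped reads of stranded polyA libraries. The submitters' processing notes name bcl2fastq 2.17.1.14, Subread, featureCounts and DESeq2 1.3.0, while the strand setting of the counting is not given in the sources used here. The deposited comparison table of the authors gave only identifiers and symbols, and its fold changes and p-values were not used. No per-sample column was left unused (0). Symbols of 5 Ragulator genes came from reference gene tables by identifier. Positions are those of the count table, and 31 of the 32 members had the same position in the reference annotation.

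The main test was edgeR 4.0.16 (glmQLFit and glmQLFTest, R 4.3.3) with TMM, filterByExpr and Benjamini-Hochberg adjustment over 9276 genes, on all 6 samples. A call needed an adjusted p of at most 0.001 and 1.5-fold, and 0.05 is given as a looser threshold. Normalized counts are counts divided by the effective library size and multiplied by its mean, and SE were derived from the F statistic. In simulated data of 9276 genes, edgeR called 100% of 200 genes changed by 2 on the log2 scale and 0 unchanged genes. The changed genes were drawn from those above the median abundance, and all genes shared a common dispersion. Changed genes with few counts and genes with a wider spread were therefore not covered. The lowest log2 fold change of the family was -1.43 (Vha44), so the simulation cannot show how often falls of the sizes seen here are called. Vha100-4, at 2.02, was not called in the main test (adjusted p = 0.00114), so the 100% does not hold for every member. Alternatives were DESeq2 1.42.0, RLE, total library size, TMM on nuclear genes, no filter, a replicate block and leaving out each sample.

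The rule for naming was all Vha genes, M1BP and fixed lists of pathway and marker genes. Members and lists were chosen with earlier results of these data known, and overlapping, neighbouring and divergent genes after their values were seen.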

Additional observations from a re-analysis of the deposited data

How the results depend on the processing

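The calls depended on the samples and the scaling. At the stricter threshold 3 members were lower and 0 higher, the same genes under RLE, TMM on nuclear genes, no filter (where Vha100-4 made 1 higher), without a fold minimum and without WT 3. Total library size gave 0 lower and 2 higher (Vha100-4 and VhaM9.7-c), DESeq2 6 lower and 1 higher, and a threshold of 0.05 gave 10 lower and 1 higher. Leaving out 1 sample gave 0 to 3 lower and 0 higher. M1BP, the targeted gene, passed the stricter threshold in 0 of 6 such fits (adjusted p 0.00103 to 0.00228), so strict calls were lost outside the pump as well. The share of all genes called under each alternative is not given here, so these counts do not show a change particular to the members. At 0.05, alternatives chosen after seeing the data gave 2 lower and 5 higher under total library size, 9 and 1 without WT 3 and 11 and 1 under DESeq2. The replicate block gave 0 lower and 0 higher at the stricter threshold and 9 lower and 1 higher at 0.05, where Vha36-3 (adjusted p = 0.0570), Cln7 (0.0596), Rbcn-3B (0.0980) and raptor (0.0573) lost their calls, and same-numbered samples deviated together with r of 0.05, 0.18 and -0.02, so the shared numbers were not taken as pairs.

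Total library size moved the median log2 fold change of all genes to 0.77 and, with it, the V1 median to -0.022, the V0 median to 0.34 and the median of all members to 0.13. Leaving out 1 sample kept the V1 median between -0.87 and -0.52, the V0 median between -0.48 and -0.33 and the median of all members between -0.73 and -0.37. Log2 fold changes that turned above 0 under total library size were VhaAC45 (0.51), Vha68-2 (0.58), Vha36-1 (0.13), Vha14-1 (0.60), Vha13 (0.040), VhaSFD (0.012), Vha100-1 (0.50), Vha100-5 (0.19), VhaPPA1-1 (0.36), VhaAC39-1 (0.31), VhaM9.7-a (0.39), VhaM9.7-b (0.013), Npc1a (0.29), Rbcn-3B (0.40) and Tor (0.11). Leaving out 1 sample gave VhaAC45 -0.32 to 0.056 and Vha14-1 -0.20 to 0.038, above 0 without WT 3. No other alternative turned a member. Without the filter Rbcn-3B missed 0.05 (adjusted p = 0.103).

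Precision was limited by 3 samples a group, and by depth for Vha100-4, Vha36-3 and VhaM9.7-a, which had at most 130.5 normalized counts in any sample. Members at 0 are limited only to the levels that 3 counts allow.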

Other observations

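ATP6AP2, a further accessory subunit of the pump whose symbol no longer begins with Vha and which the naming rule therefore left out, had 2321, 2265 and 2403 normalized counts upon M1BP RNAi against 3237, 2728 and 5535 in WT. It was lower in every knockdown sample (log2 fold change -0.72, adjusted p = 0.0405, edgeR quasi-likelihood test with Benjamini-Hochberg adjustment), with WT 3 highest as in most broad copies.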
